A study of Mus musculus with 12 samples.

Results

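RNA sequencing was used to compare cDC2 of Zfp366-/- mice (KO) with cDC2 of wild-type mice (WT), over the 3 KO and 3 WT libraries that the titles of the samples name as such, which are 6 of the 12 libraries of the study. Zfp366 is the gene of the zinc finger protein DC-SCRIPT, and cDC2 are the type 2 conventional dendritic cells, here from mouse spleen. All libraries came from female mice with the strain label C57/BL6, whose spleens were digested with collagenase and DNAse before polyA RNA was taken. No further treatment or time point is given in the labels, and the age, the sort markers and the construction of the Zfp366 allele are not given in the sources used here. Each library was made from a pool of mice, KO pools 1 to 3 and WT pools 4 to 6, and the same 6 pools gave the study's 6 cDC1 libraries, from type 1 conventional dendritic cells. The libraries labelled KO replicates 1, 2 and 3 are called KO 1, KO 2 and KO 3, and those labelled WT replicates 1, 2 and 3 are called WT 1, WT 2 and WT 3. Total counts were 34886405, 36761685 and 23737888 in KO 1, 2 and 3, against 28470063, 21135759 and 11330503 in WT 1, 2 and 3. WT 3, the library with the lowest total, had reads for 12750 genes, where the other 5 had reads for 15003 to 15937.

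DC-SCRIPT is expressed throughout the dendritic cell lineage, where it binds DNA and corepressors, and it has been tied to cytokine control in human dendritic cells and to the development and function of cDC1 in mice. cDC2 carry SIRP-alpha and CD11b, depend on the transcription factor IRF4, and for one splenic subset on NOTCH2 signalling. They present antigen on MHC class II to CD4+ T cells. They are also strong responders to microbial products, through Toll-like receptors and C-type lectins.

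The libraries held the genes of cDC2. Sirpa, which encodes SIRP-alpha, had 917, 665 and 680.0 CPM in KO 1, 2 and 3, against 499, 785 and 706 CPM in WT 1, 2 and 3, and the cDC2 lectin gene Clec4a4 had 283, 567 and 584 CPM in KO 1, 2 and 3, against 528, 349.8 and 373 CPM in WT 1, 2 and 3. Xcr1, the chemokine receptor that defines cDC1, had 2.96, 1.62 and 1.43 CPM in KO 1, 2 and 3, against 4.28, 1.63 and 0.0911 CPM in WT 1, 2 and 3. WT 1 was the highest of the 6 libraries in Xcr1 and in 3 other genes of cDC1, with 91.4 CPM of Irf8, 62.2 CPM of Cd8a and 27.9 CPM of Clec9a. Of all 26 genes of the cDC1 signature, 18 were lower in KO 1 than in WT 1 and 8 higher, with a median log2 difference of -0.37. Their sum was highest in KO 1 (1846 CPM, against 1667 CPM in WT 1). CPM are read counts scaled to a common library size by TMM.

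Zfp366 itself was read in every library. Its level was 55, 80.6 and 65.1 CPM in KO 1, 2 and 3, against 52.6, 62.4 and 57.4 CPM in WT 1, 2 and 3, so the groups overlapped. Its log2 fold change was 0.22 (SE 0.27) over 6 libraries, at an adjusted p of 1 in edgeR's quasi-likelihood test, and 0.28 (SE 0.15, adjusted p = 0.307) in replicates 2 and 3. The counts are per gene and do not show which exons were read, and the deleted part is not given, so Zfp366 does not check the genotype labels. Other genes gave a partial check. The cDC1 libraries of the same mouse pools had 218 genes that were called between KO and WT (5.32% of tested genes were called there), at least 4-fold apart and free of overlap. Of these, 36.7% had the same sign in the cDC2 pair numbered 1, 62.8% in pair 2 and 58.7% in pair 3. The sign was opposite for 133, 77 and 83 of the 218, and the rest had no difference. In cDC1, 167 of the 218 were higher in KO. Among the 160 with a mean of at least 5 CPM in the higher cDC2 group, the same-sign shares were 38.8%, 60.6% and 60.0%.

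The pair numbered 1 ran opposite to replicates 2 and 3 in many genes, and this touches every result over the 6 libraries. Over all tested genes, KO 2 and KO 3 were each other's closest library (r = 0.995 of log2 CPM across genes, which are not independent replicates). KO 1 was closest to WT 2 (r = 0.975), and WT 1 was closest to KO 3 (r = 0.971). WT 2 was also closest to KO 3 (r = 0.980, against 0.965 with WT 3), and WT 3 was closest to WT 2. Among 479 genes that were called and at least 2-fold apart in replicates 2 and 3, a choice in which the libraries numbered 1 took no part, 437 (91.2%) had the opposite sign in pair 1, against 64.3% of all tested genes. This held for 215 of the 232 genes higher in KO 2 and 3 and for 222 of the 247 that were lower. Across the 479 genes the log2 differences of pair 1 had a Pearson r of -0.74 and a Spearman rho of -0.78 with those of replicates 2 and 3. KO 1 was nearer to the mean of WT 2 and 3 for 347 of the genes (72.4%), and WT 1 was nearer to the mean of KO 2 and 3 for 405 (84.6%). Why pair 1 differed was not tested. The labels were kept as deposited, and results are given over 6 libraries, for replicates 2 and 3, and for pair 1.

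**Figure D1:**
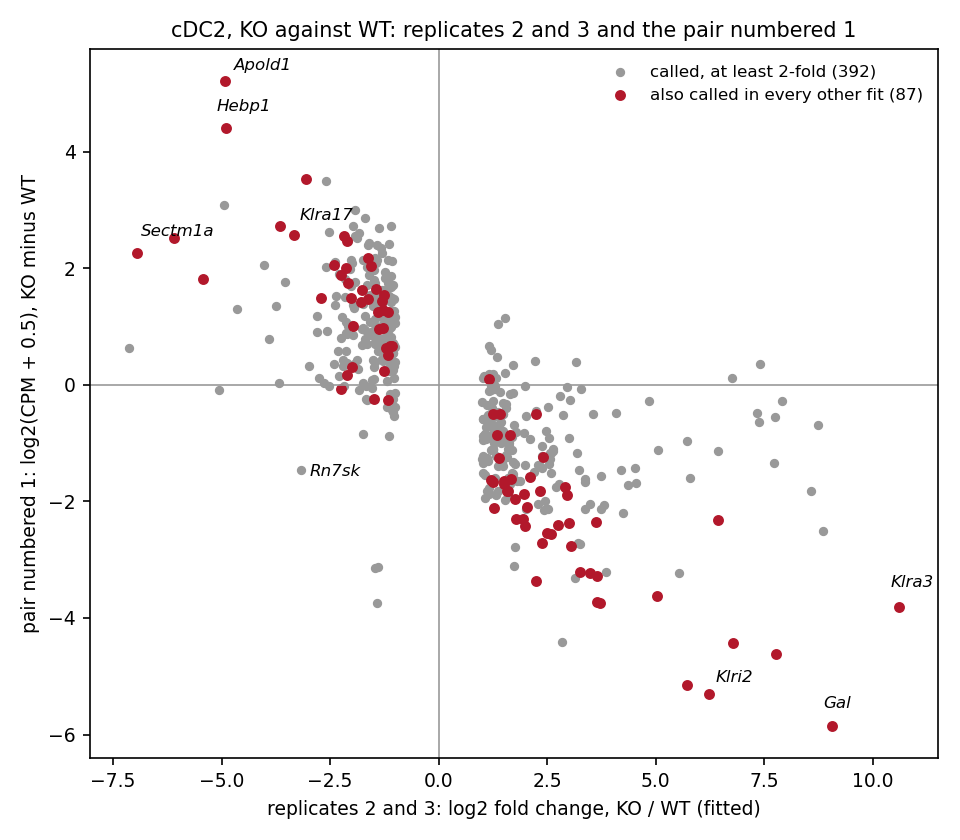
Each point is 1 of the 479 genes called and at least 2-fold apart in replicates 2 and 3 of cDC2. The horizontal axis is the fitted log2 fold change of KO over WT in replicates 2 and 3, the vertical axis is log2(CPM + 0.5) in KO 1 minus WT 1, and the 87 red points are genes called in all 13 fits of replicates 2 and 3. Most points lie in the upper left and lower right, where the signs are opposite (437 of 479).

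The genes called under every setting showed the same order. Of the genes in replicates 2 and 3, 93 were called in all 13 fits that were run, a set put together after the fits had been seen. On a scale where 0 is the mean of WT 2 and 3 and 1 is the mean of KO 2 and 3, KO 1 had a median position of 0.0610 over the 93 genes, with quartiles of -0.12 and 0.28. WT 1 had a median of 0.961, with quartiles of 0.80 and 1.10. Over the 479 genes the medians were 0.216 for KO 1 and 0.961 for WT 1. KO 1 lay under the midpoint for 80 of the 93 genes, and WT 1 lay over it for 86. Their sign in pair 1 was opposite for 89 (95.7%).

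**Figure D2:**
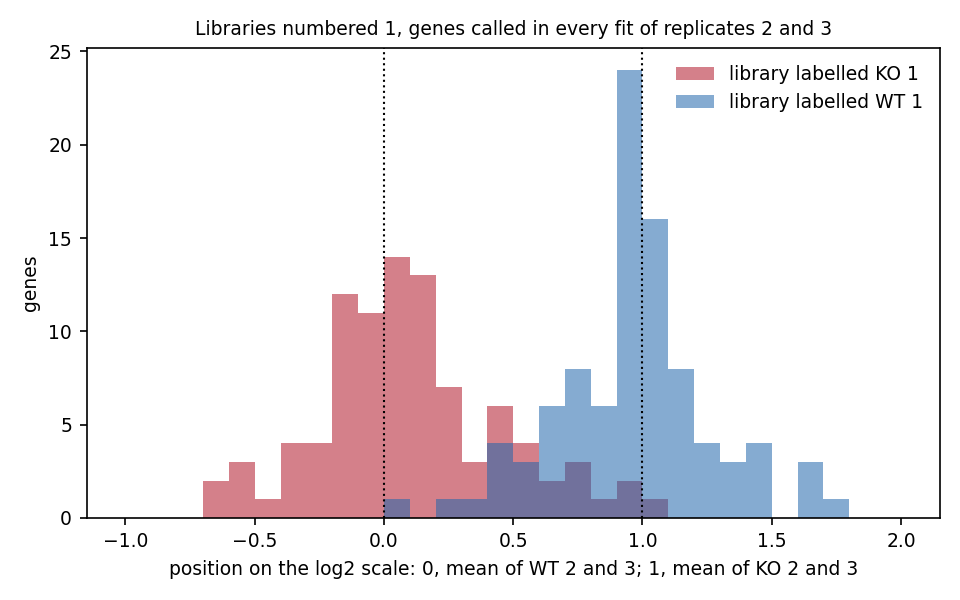
Histogram of the positions of KO 1 (red) and WT 1 (blue) for the 93 genes called in every fit of replicates 2 and 3; the horizontal axis is a log2 scale on which 0 is the mean of WT 2 and 3 and 1 the mean of KO 2 and 3, and the vertical axis counts genes. KO 1 gathers around 0 (median 0.0610) and WT 1 around 1 (median 0.961).

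Over all 6 libraries no gene was called. Of 13415 genes tested, 0 (0%) had an adjusted p (Benjamini-Hochberg) below 0.05 in edgeR's quasi-likelihood test, and the smallest adjusted p was 1. DESeq2, limma-voom and each alternative fit also gave 0 calls, and 271 genes had an unadjusted p below 0.05. Log2 fold changes had standard errors with a median of 0.33. For 789 genes (5.88%) the KO libraries lay all above or all below the WT libraries. In simulated counts of 13415 genes with the spread of these libraries, 100 genes were changed 2-fold and 100 others 4-fold. All of these had a mean of at least 5 CPM, so the shares do not cover genes with lower counts. The same fit recovered 15% of the 2-fold changes and 93% of the 4-fold changes. Changes of about 2-fold were thus mostly not detectable at this spread, even when all KO libraries shared them. These shares do not apply to changes whose sign was opposite in pair 1, as for 91.2% of the 479 genes described above. For such genes the 0 calls do not show that 4-fold changes were absent.

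In replicates 2 and 3, 1039 of 13461 genes were called (7.72%). Of these, 451 were higher in KO (3.35% of the genes tested) and 588 were lower (4.37%), and 479 (3.56%) were also at least 2-fold apart. The median log2 fold change of all genes was 0.03 and the median standard error 0.20, with 2 libraries a group and the spread shared with the cDC1 libraries numbered 2 and 3. KO 2 and 3 did not overlap WT 2 and 3 for 6792 genes (50.5%). Each fit without 1 cDC2 library leaves 1 library in that group, which then adds nothing to the estimate of the spread. The number of calls changed with the libraries in the fit. It was 316 without KO 2, 300 without KO 3, 5245 without WT 2 and 1683 without WT 3. It was 293 in a fit of the 4 cDC2 libraries alone (the 4-library fit) and 122 when the cDC1 libraries numbered 1 were kept (the 10-library fit, added after the data had been seen). Of 98 genes named by the fixed rule and called here, 28 kept the call in all 12 alternatives, 24 lost it only in the 10-library fit and 46 lost it elsewhere. Unless another fit is named, changes below are log2 fold changes of KO over WT in replicates 2 and 3 with their standard error (SE), tested with edgeR's quasi-likelihood test. Counts of called list members below are to be read beside the shares over all genes tested, 3.35% higher and 4.37% lower. In bulk libraries fewer cells of a type and less RNA per cell cannot be told apart.

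Several C-type lectin receptor genes on chromosome 6 rose in replicates 2 and 3. They were high in KO 2 and 3 and low in WT 2 and 3, and the libraries numbered 1 had the reverse order. Klri1 and Klri2 encode killer-type lectin receptors that were first described on natural killer cells and that pair with KLRE1. Klri1 (chr6:129696118-129720610, GRCm38.p6) had 24, 364 and 391 CPM in KO 1, 2 and 3, against 324, 29.8 and 30.3 CPM in WT 1, 2 and 3. Klri2 (chr6:129729041-129740484) had 1.34, 82.3 and 87.3 CPM in KO 1, 2 and 3, against 72.4, 1.35 and 0.729 CPM in WT 1, 2 and 3. KO 1 lay with WT 2 and 3 for both genes and WT 1 with KO 2 and 3. Klri1 rose by 3.65 (SE 0.12, adjusted p = 2.39e-08) and Klri2 by 6.23 (SE 0.24, adjusted p = 4.87e-08). Klre1, the partner gene, was low, with 1.48, 4.31 and 4.20 CPM in KO 1, 2 and 3, against 2.31, 2.60 and 3.28 CPM in WT 1, 2 and 3, and was not called (log2 fold change 0.54, SE 0.39, adjusted p = 0.440).

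Klra3, which encodes a Ly49 receptor for MHC class I, had 0.0549, 8.43 and 9.07 CPM in KO 1, 2 and 3, against 7.29, 0 and 0 CPM in WT 1, 2 and 3. WT 2 and 3 had no read where KO 2 and 3 had 517, which is at least 94.1-fold higher in KO 2 and 3 when the floor is 3 reads over both WT libraries (adjusted p = 2.61e-05). Klrb1b, an NKR-P1 receptor gene named after its values were seen, had 0.302, 5.35 and 4.45 CPM in KO 1, 2 and 3, against 16.7, 0.465 and 1.09 CPM in WT 1, 2 and 3 (log2 fold change 2.83, SE 0.37, adjusted p = 0.000733). In the 4-library fit its adjusted p was 0.0854, the highest of the 12 alternatives, and it kept its call in the other 11. Its neighbour Klrb1c, which encodes the NK1.1 antigen, stayed near the floor, with 0.411, 0.560 and 1.26 CPM in KO 1, 2 and 3, against 0.771, 0 and 0 CPM in WT 1, 2 and 3, and was at least 9.10-fold higher in KO 2 and 3. Without KO 2 the adjusted p was 0.111 for Klrb1c, and without KO 3 it was 0.221 for Klrb1c. Calls also ended with limma-voom, with the replicate block, in the 4-library fit and in the 10-library fit, and over the 12 alternatives the adjusted p ran from 0.000934 to 0.221 for Klrb1c. Klra17, another Ly49 gene, went the other way, with 216, 19.8 and 22.4 CPM in KO 1, 2 and 3, against 35.9, 219 and 207 CPM in WT 1, 2 and 3 (log2 fold change -3.34, SE 0.13, adjusted p = 4.87e-08). KO 1 lay with WT 2 and 3 in Klra17, and WT 1 lay nearer to KO 2 and 3. Ly49 and NKR-P1 genes are near-identical copies of each other in places, and how reads shared between them were counted is not given, so their single values are uncertain.

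A second set of lectins on the same chromosome moved with them. The Clec4 genes encode the DCIR and Dectin-2 type lectins that dendritic cells use to bind sugars, and they too resemble each other in sequence. Clec4a3 (chr6:122952515-122969878) had 56, 159 and 175 CPM in KO 1, 2 and 3, against 242, 45.9 and 35.7 CPM in WT 1, 2 and 3 (log2 fold change 2.02, SE 0.15, adjusted p = 1.69e-05). Clec4a2, which encodes DCIR1, had 100.2, 313 and 303 CPM in KO 1, 2 and 3, against 327, 115 and 99.6 CPM in WT 1, 2 and 3 (log2 fold change 1.52, SE 0.12, adjusted p = 1.69e-05). In both genes KO 1 lay beside WT 2 and 3, and WT 1 was the highest library. Clec4b1, named after its values were seen, had 14, 79.6 and 73.6 CPM in KO 1, 2 and 3, against 70.7, 16.3 and 24 CPM in WT 1, 2 and 3 (log2 fold change 1.94, SE 0.17, adjusted p = 4.86e-05). Clec10a, a galactose lectin gene on chromosome 11, had 18.4, 28 and 34.5 CPM in KO 1, 2 and 3, against 66.2, 11.7 and 9.20 CPM in WT 1, 2 and 3 (log2 fold change 1.57, SE 0.20, adjusted p = 0.000675). Clec4a4, the DCIR2 gene that marks splenic cDC2, rose by 0.67 (SE 0.10, adjusted p = 0.00161).

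**Figure D3:**
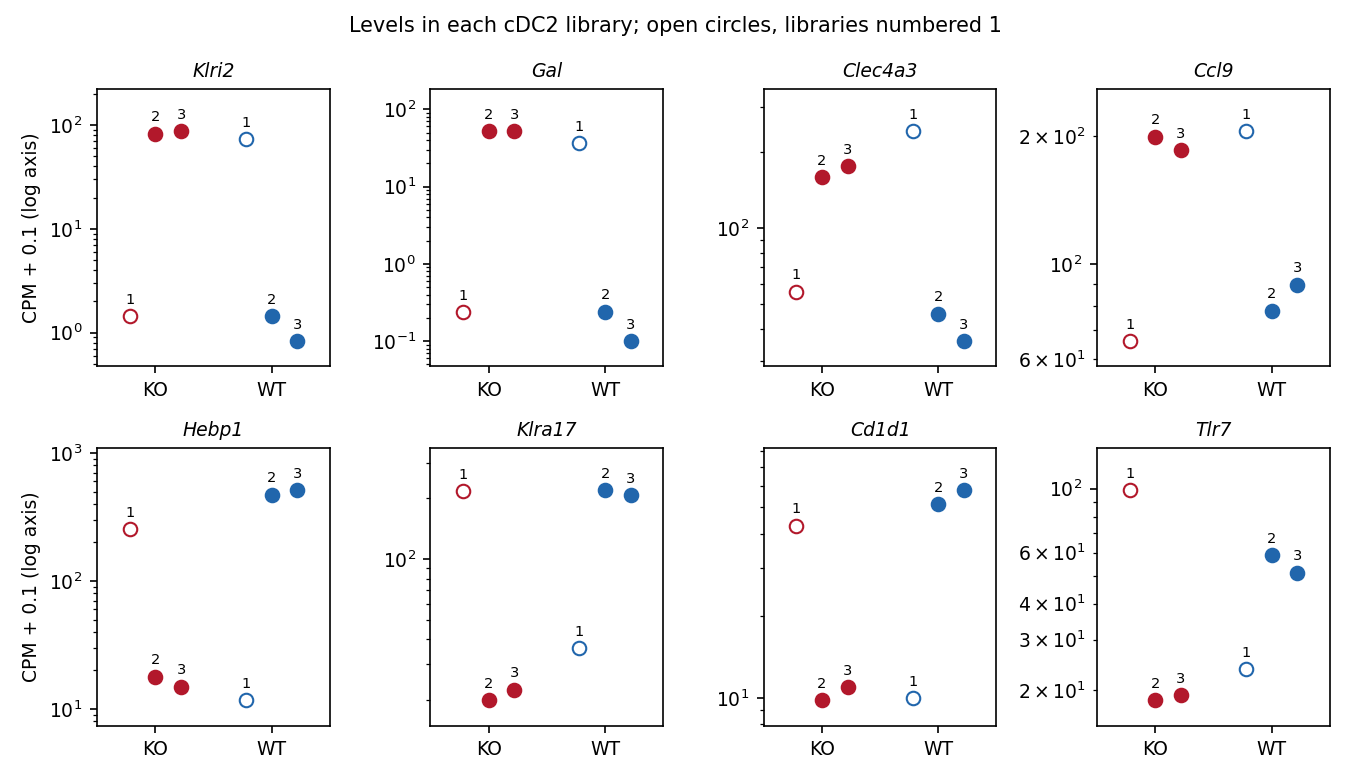
Level of 8 genes in each of the 6 cDC2 libraries, in CPM + 0.1 on a log axis, with KO libraries in red on the left and WT libraries in blue on the right; open circles are the libraries numbered 1. In each panel KO 2 and 3 lie apart from WT 2 and 3, and KO 1 and WT 1 lie on the side of the other label. Klri2, Gal, Clec4a3 and Ccl9 are higher in KO 2 and 3, and Hebp1, Klra17, Cd1d1 and Tlr7 are lower.

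Genes that dendritic cells are not usually known for were among the other large rises. Gal, which encodes the neuropeptide galanin (chr19:3409915-3414544), had 0.137, 52.2 and 52 CPM in KO 1, 2 and 3, against 36.1, 0.139 and 0 CPM in WT 1, 2 and 3. KO 2 and 3 held 3100 reads of it against 3 in WT 2 and 3, a ratio of 564 (95% counting interval 193 to 2736, adjusted p = 5.32e-07). St8sia3, a sialyltransferase gene of chromosome 18, had 0, 13.8 and 15.2 CPM in KO 1, 2 and 3, against 11.7, 0.0930 and 0 CPM in WT 1, 2 and 3, a ratio of 234 over 2 reads in WT 2 and 3 (95% counting interval 64.5 to 1932, adjusted p = 2.84e-05). Both were nearly silent in KO 1, WT 2 and WT 3.

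Blnk, which encodes a B cell adaptor protein, had 0.439, 41.8 and 42.1 CPM in KO 1, 2 and 3, against 32.9, 1.26 and 0 CPM in WT 1, 2 and 3 (log2 fold change 5.72, SE 0.51, adjusted p = 5.41e-05). Prg2, a gene of the eosinophil granule, had 1.34, 35 and 32.8 CPM in KO 1, 2 and 3, against 22.3, 1.67 and 0 CPM in WT 1, 2 and 3 (log2 fold change 5.03, SE 0.52, adjusted p = 0.000150). WT 1 was again on the side of KO 2 and 3 for both. Smaller levels underlay the other 3 rises. Gbx1, a homeobox gene, had 0.219, 5.66 and 5.67 CPM in KO 1, 2 and 3, against 6.24, 0.186 and 0 CPM in WT 1, 2 and 3 (log2 fold change 5.53, SE 1.11, adjusted p = 0.0107). Gata3, a transcription factor gene of T cells and innate lymphoid cells, had 0.137, 5.85 and 6.42 CPM in KO 1, 2 and 3, against 1.54, 0.418 and 0 CPM in WT 1, 2 and 3 (log2 fold change 4.55, SE 0.81, adjusted p = 0.00532). Dyrk4, a kinase gene, had 0.466, 4.85 and 7.34 CPM in KO 1, 2 and 3, against 3.96, 0.511 and 0 CPM in WT 1, 2 and 3 (log2 fold change 4.24, SE 0.65, adjusted p = 0.00201). Leaving out KO 2 gave an adjusted p of 0.118 for Gbx1 and 0.0746 for Gata3, and without KO 3 it was 0.0954 for Gbx1 and 0.0781 for Gata3. Over the 12 alternatives the adjusted p ran from 4.38e-10 to 0.118 for Gbx1, from 2.80e-09 to 0.0890 for Gata3 and from 9.45e-13 to 0.0803 for Dyrk4, and calls also ended with DESeq2 for Gbx1, in the 10-library fit for Gbx1 and Gata3 and in the 4-library fit for Gata3 and Dyrk4.

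The largest falls included another group of chromosome 6 neighbours. Hebp1, which encodes a haem-binding protein (chr6:135137519-135168215), had 255, 17.8 and 14.8 CPM in KO 1, 2 and 3, against 11.6, 469.9 and 512 CPM in WT 1, 2 and 3 (log2 fold change -4.91, SE 0.16, adjusted p = 2.39e-08). Apold1 (chr6:134982001-134986836), an endothelial stress response gene, had 47.6, 1.09 and 0.881 CPM in KO 1, 2 and 3, against 0.806, 31.7 and 28.8 CPM in WT 1, 2 and 3 (log2 fold change -4.91, SE 0.21, adjusted p = 1.03e-07). For these genes WT 1 lay with KO 2 and 3, and KO 1 lay high, with WT 2 and 3. Asprv1, a skin aspartic protease gene, had 14.9, 2.44 and 2.22 CPM in KO 1, 2 and 3, against 4.98, 12.6 and 18.4 CPM in WT 1, 2 and 3 (log2 fold change -2.71, SE 0.25, adjusted p = 5.92e-05).

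Cd1d1 encodes the molecule that presents lipids to natural killer T cells. It had 42.7, 9.69 and 10.8 CPM in KO 1, 2 and 3, against 9.89, 51.1 and 57.6 CPM in WT 1, 2 and 3 (log2 fold change -2.41, SE 0.14, adjusted p = 2.11e-06), with KO 2, KO 3 and WT 1 low and the other 3 libraries high. Sectm1a, a relative of the human CD7 ligand gene SECTM1, had 2.39, 0.112 and 0 CPM in KO 1, 2 and 3, against 0.105, 4.65 and 12.8 CPM in WT 1, 2 and 3 (log2 fold change -6.95, SE 0.93, adjusted p = 0.000816). Scn3a, a sodium channel gene, had 17.4, 2.74 and 4.03 CPM in KO 1, 2 and 3, against 1.05, 22.8 and 33.4 CPM in WT 1, 2 and 3 (log2 fold change -3.06, SE 0.30, adjusted p = 9.21e-05). Cd7, the gene of the T cell and dendritic cell surface protein CD7, rose, with 407, 1087 and 1086 CPM in KO 1, 2 and 3, against 1066, 425 and 423 CPM in WT 1, 2 and 3 (log2 fold change 1.36, SE 0.10, adjusted p = 1.69e-05). Mapk13, which encodes p38-delta, had 4.28, 1.04 and 0.839 CPM in KO 1, 2 and 3, against 2.03, 3.30 and 8.20 CPM in WT 1, 2 and 3 (log2 fold change -2.57, SE 0.46, adjusted p = 0.00533). Rn7sk, a small nuclear RNA gene, had 2.96, 3.03 and 3.53 CPM in KO 1, 2 and 3, against 9.01, 5.11 and 55.3 CPM in WT 1, 2 and 3 (log2 fold change -3.18, SE 0.77, adjusted p = 0.0304), and 1 library, WT 3, set the difference. The adjusted p without KO 2 was 0.0555 for Mapk13 and 0.392 for Rn7sk, without KO 3 it was 0.0719 for Mapk13 and 0.333 for Rn7sk, and without WT 3 it was 0.153 for Rn7sk. The call was also lost in the 4-library fit for Mapk13 and Rn7sk and with limma-voom, with the replicate block and in the 10-library fit for Rn7sk, and the adjusted p ran from 2.05e-09 to 0.106 for Mapk13 and from 1.83e-26 to 0.472 for Rn7sk over the 12 alternatives. With the cDC1 libraries numbered 1 kept, the adjusted p was 0.0929 for Cd7.

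Interferon-stimulated genes fell as a group in KO 2 and 3. These are the antiviral genes that type I and type III interferons switch on through the interferon-stimulated response element (ISRE) in promoters. Of 36 tested, 28 were lower, 1 was higher and 7 were not called, against 4.37% lower and 3.35% higher among all genes tested. The list's median log2 fold change was -0.96, against 0.03 for all genes. In pair 1 the list had a median of 0.70, and 28 of the 29 called genes had the opposite sign there. The exception was Irf9, and the gene that rose was Oas3, both named after their values were seen. The 28 lower calls became 11 in the 4-library fit, 13 without KO 2, 14 without KO 3 and 4 in the 10-library fit, and the median stayed between -0.98 and -0.91 in all 12 alternatives.

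The promoters of 4 genes are shown because they hold the element searched for in the called genes, in capitals below. They are RefSeq promoters of GRCm38.p6, from 250 bases before the start of the gene to 50 after it, written 5′ to 3′ on the gene's strand. Isg15 (chr4:156200769-156201068, minus strand) held 3 overlapping matches from 78 to 57 bases before its start. Ifit3 (chr19:34583279-34583578, plus strand) and Ifit1 (chr19:34640639-34640938, plus strand) held 2 each. Hsph1 (chr5:149636266-149636565, minus strand), a chaperone gene described further on, held 1 match to the heat shock element.
Isg15 promoter: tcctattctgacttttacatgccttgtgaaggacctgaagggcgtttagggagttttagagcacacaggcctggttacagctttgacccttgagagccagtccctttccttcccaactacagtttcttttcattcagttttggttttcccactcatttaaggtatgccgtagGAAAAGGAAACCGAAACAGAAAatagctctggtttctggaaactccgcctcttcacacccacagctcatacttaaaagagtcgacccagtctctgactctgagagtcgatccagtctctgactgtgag
Ifit3 promoter: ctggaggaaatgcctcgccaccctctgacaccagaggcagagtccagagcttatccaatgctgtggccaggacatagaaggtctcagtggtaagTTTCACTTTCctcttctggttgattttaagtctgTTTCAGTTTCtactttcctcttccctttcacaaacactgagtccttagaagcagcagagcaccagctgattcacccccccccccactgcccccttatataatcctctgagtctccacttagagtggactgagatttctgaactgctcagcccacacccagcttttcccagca
Ifit1 promoter: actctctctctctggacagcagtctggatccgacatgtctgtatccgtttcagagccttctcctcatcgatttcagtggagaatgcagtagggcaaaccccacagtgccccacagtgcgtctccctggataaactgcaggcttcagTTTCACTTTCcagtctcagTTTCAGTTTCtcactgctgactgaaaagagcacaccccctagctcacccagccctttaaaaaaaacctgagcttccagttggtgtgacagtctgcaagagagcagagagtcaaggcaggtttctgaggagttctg
Hsph1 promoter: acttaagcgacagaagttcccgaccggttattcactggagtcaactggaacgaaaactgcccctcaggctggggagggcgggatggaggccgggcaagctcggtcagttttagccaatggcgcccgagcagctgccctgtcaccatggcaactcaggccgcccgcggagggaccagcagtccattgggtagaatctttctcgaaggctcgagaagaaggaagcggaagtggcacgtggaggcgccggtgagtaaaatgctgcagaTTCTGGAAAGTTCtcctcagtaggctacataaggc

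The letters searched for the ISRE were GAAA, 2 bases of any kind and GAAA again, on either strand, with matches allowed to overlap. They were found in 1131 of 32851 promoters (3.44%) and in 406 of 10127 tested genes with a promoter entry (4.01%). Of the 28 interferon-stimulated genes called lower, 22 had an entry, and 13 of these held a match (59.1%). Oas3 held one too. Ifit2, Isg20, Oasl1, Oasl2, Irf7, Irf9, Ifi44, Xaf1 and Cmpk2 had no match in this window. A match describes the letters and not binding.

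Isg15 encodes a ubiquitin-like modifier. It had 87.1, 58.3 and 50.6 CPM in KO 1, 2 and 3, against 38, 104 and 111 CPM in WT 1, 2 and 3 (log2 fold change -0.98, SE 0.12, adjusted p = 0.000414). Ifit1, whose protein binds viral RNA caps, had 19, 5.91 and 4.91 CPM in KO 1, 2 and 3, against 6.21, 19.1 and 13.4 CPM in WT 1, 2 and 3 (log2 fold change -1.59, SE 0.27, adjusted p = 0.00401). Ifit3, which encodes a partner of IFIT1, had 27.9, 15.7 and 17.9 CPM in KO 1, 2 and 3, against 12.2, 50.5 and 31 CPM in WT 1, 2 and 3 (log2 fold change -1.29, SE 0.21, adjusted p = 0.00341). In all 3 genes KO 2, KO 3 and WT 1 were below KO 1, WT 2 and WT 3. These 3 genes were named after their values were seen. Ifit2, of the same family, had 38.8, 11.5 and 12.5 CPM in KO 1, 2 and 3, against 6.94, 34.2 and 39.3 CPM in WT 1, 2 and 3 (log2 fold change -1.62, SE 0.15, adjusted p = 6.36e-05). Isg20, an exonuclease gene, had 25.9, 15.7 and 15.4 CPM in KO 1, 2 and 3, against 12, 44.9 and 47.9 CPM in WT 1, 2 and 3 (log2 fold change -1.58, SE 0.15, adjusted p = 6.92e-05). Zbp1, the gene of a sensor of Z-form nucleic acid, had 28.6, 19.3 and 17.8 CPM in KO 1, 2 and 3, against 12.9, 49.97 and 53.1 CPM in WT 1, 2 and 3 (log2 fold change -1.47, SE 0.13, adjusted p = 5.92e-05). Irf7, the regulator that amplifies interferon output, had 85.7, 49.2 and 48.7 CPM in KO 1, 2 and 3, against 50.8, 94.1 and 92.4 CPM in WT 1, 2 and 3 (log2 fold change -0.93, SE 0.11, adjusted p = 0.000263). WT 1 lay beside KO 2 and 3 in each of these genes. The 10-library fit gave an adjusted p of 0.374 for Isg15, 0.0511 for Ifit2, 0.0889 for Isg20, 0.0647 for Zbp1 and 0.0986 for Irf7. With KO 2 left out, the adjusted p was 0.0692 for Ifit3, and without KO 3 it was 0.0785 for Ifit1. Among the 12 alternatives the adjusted p ran from 1.48e-07 to 0.0785 for Ifit1 and from 9.56e-10 to 0.303 for Ifit3, with calls also lost in the 10-library fit for Ifit1 and Ifit3 and in the 4-library fit for Ifit3.

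Oasl2, a relative of the oligoadenylate synthetases, kept its call in all 12 alternatives, with 31.2, 15.5 and 14.8 CPM in KO 1, 2 and 3, against 10.4, 37.7 and 34.6 CPM in WT 1, 2 and 3 (log2 fold change -1.25, SE 0.14, adjusted p = 0.000260). Oas3, the only member of the list called higher, had 21, 33.9 and 42.2 CPM in KO 1, 2 and 3, against 38.8, 14.5 and 8.65 CPM in WT 1, 2 and 3 (log2 fold change 1.67, SE 0.23, adjusted p = 0.000913). Cxcl10, the interferon-induced chemokine that draws in CXCR3+ T cells, had 25.8, 9.47 and 11 CPM in KO 1, 2 and 3, against 10.4, 25.2 and 24.5 CPM in WT 1, 2 and 3 (log2 fold change -1.29, SE 0.15, adjusted p = 0.000291) and kept its call throughout. Oas3 was not called in the 10-library fit. The groups of replicates 2 and 3 were apart for all of these genes, as for 50.5% of all tested genes. Ifit3 and Ifit3b, Oas1a and Oas1g, and the Mx genes are close copies, so their counts may share reads.

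**Figure D4:**
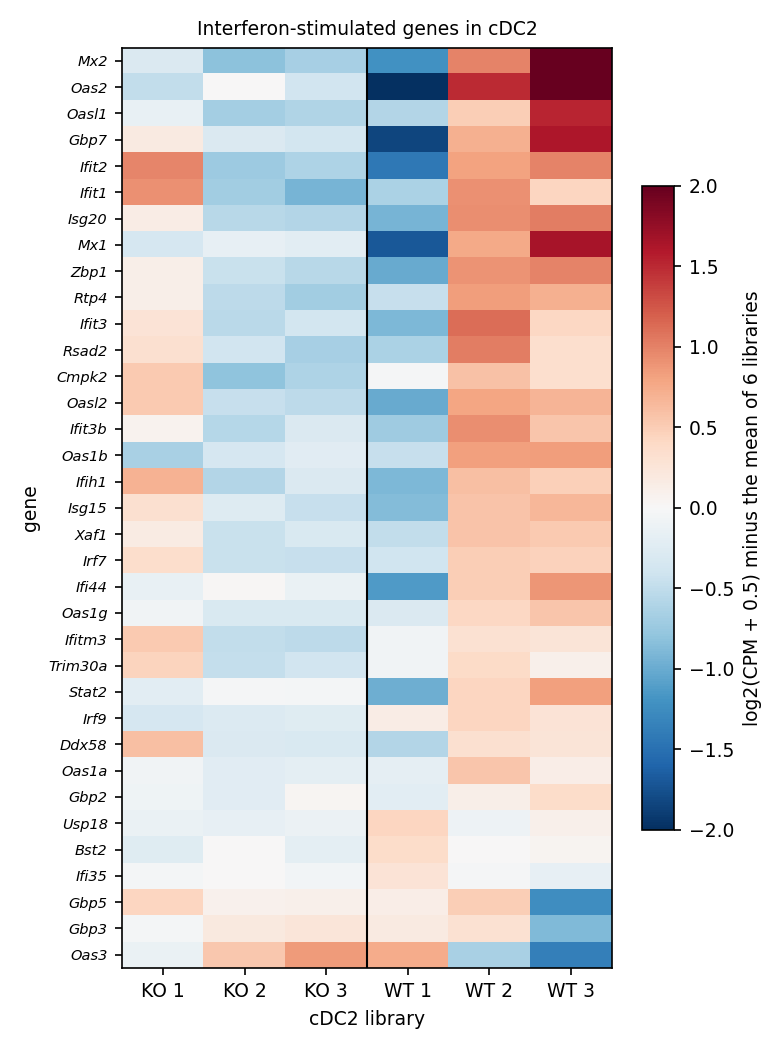
35 of the 36 tested interferon-stimulated genes (rows, ordered by their change in replicates 2 and 3) in the 6 cDC2 libraries (columns, KO left of WT); colour is log2(CPM + 0.5) minus the gene's mean over the 6 libraries, limited at -2 and 2. WT 2 and 3 are red in most rows, KO 2, KO 3 and WT 1 blue, and KO 1 is red in many; the upper rows hold most of the 28 genes called lower, and Oas3 at the foot is the one called higher.

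Heat shock chaperones, which fold proteins and are induced by stress through HSF1, were lower in KO 2 and 3. Of 17 tested, 10 were lower and 0 higher, with a median of -0.60. Hspa1b, one of the inducible HSP70 genes, had 23.4, 4187 and 4132 CPM in KO 1, 2 and 3, against 318, 11975 and 10354 CPM in WT 1, 2 and 3 (log2 fold change -1.43, SE 0.14, adjusted p = 0.000116). Its near copy Hspa1a had 10.1, 1292 and 1286 CPM in KO 1, 2 and 3, against 91.9, 3636 and 3131 CPM in WT 1, 2 and 3 (log2 fold change -1.39, SE 0.14, adjusted p = 0.000132), and reads shared by the pair may have been split. KO 1 and WT 1 were both far below the other 4 libraries in these genes, so here the libraries numbered 1 stood apart together and not on opposite sides. Hsph1, the HSP110 gene whose promoter is printed above, had 33.6, 104 and 78.7 CPM in KO 1, 2 and 3, against 17.9, 294 and 503 CPM in WT 1, 2 and 3 (log2 fold change -2.12, SE 0.23, adjusted p = 0.000186). Dnajb1, the co-chaperone gene, had 99.2, 984 and 889 CPM in KO 1, 2 and 3, against 182, 2046 and 2114 CPM in WT 1, 2 and 3 (log2 fold change -1.15, SE 0.11, adjusted p = 8.05e-05). Hspb1, a small heat shock protein gene, had 0.192, 1.01 and 1.22 CPM in KO 1, 2 and 3, against 0.140, 8.37 and 6.47 CPM in WT 1, 2 and 3 (log2 fold change -2.75, SE 0.37, adjusted p = 0.000796). All 10 calls ended in the 10-library fit, where the adjusted p was 0.873 for Hspa1b, 0.873 for Hspa1a, 0.226 for Hsph1, 0.792 for Dnajb1 and 0.592 for Hspb1.

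The heat shock element was searched on either strand as GAA, TTC and GAA with 2 bases of any kind between them. It was in 198 of 32851 promoters (0.603%) and in 60 of the tested genes with an entry (0.592%). Of the 10 chaperone genes called lower, 8 had an entry and 2 of them held a match (25%), Hsph1 and Hspd1. Hspa8 and Hsp90aa1 had no entry.

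Genes of MHC class I presentation, which show peptides to CD8+ T cells, were lower in part. Of 21 tested, 10 were lower and none higher, with a median of -0.42. H2-K1, a classical class I heavy chain gene, had 2336, 1034 and 1059.7 CPM in KO 1, 2 and 3, against 1636, 1909 and 1719.6 CPM in WT 1, 2 and 3 (log2 fold change -0.80, SE 0.11, adjusted p = 0.00132). The Qa-type genes fell with it, H2-Q4 with 196, 104 and 98.5 CPM in the KO libraries and 123, 195 and 229 CPM in the WT libraries (log2 fold change -1.06, SE 0.12, adjusted p = 0.000227) and H2-Q6 with 154, 84.1 and 78.9 CPM in the KO libraries and 103, 158 and 161 CPM in the WT libraries (log2 fold change -0.97, SE 0.11, adjusted p = 0.000228). H2-Q7 had 238, 159 and 143 CPM in KO 1, 2 and 3, against 191, 273 and 294 CPM in WT 1, 2 and 3 (log2 fold change -0.91, SE 0.10, adjusted p = 0.000290), and in the 10-library fit the adjusted p was 0.121 for H2-K1 and 0.152 for H2-Q7. H2-Q genes resemble each other closely, and reads may have been shared between them. The other lower genes were H2-D1, H2-T23, the peptide pump genes Tap1 and Tap2, the proteasome activator gene Psme1 and the class I transactivator gene Nlrc5. B2m, which encodes the shared light chain, had a log2 fold change of -0.11 (adjusted p = 0.632). The 10 lower calls became 4 in the 4-library fit, 5 without KO 2, 4 without KO 3 and 2 in the 10-library fit.

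On the class II side, against 4.37% lower and 3.35% higher among all genes tested, 0 of 15 genes were higher and 1 was lower. It was Ciita, the class II transactivator gene, with 489.9, 337 and 321 CPM in KO 1, 2 and 3, against 165, 458 and 466 CPM in WT 1, 2 and 3 (log2 fold change -0.49, SE 0.12, adjusted p = 0.0298). H2-Ab1 had 14133, 10897 and 10701 CPM in KO 1, 2 and 3, against 14348, 14541 and 13943 CPM in WT 1, 2 and 3 and missed the threshold (log2 fold change -0.40, SE 0.11, adjusted p = 0.0547), as did H2-Eb1, with 12845, 7890.5 and 8107 CPM in KO 1, 2 and 3, against 11979.9, 10506 and 9468 CPM in WT 1, 2 and 3 (log2 fold change -0.32, SE 0.12, adjusted p = 0.123). KO 2 and 3 were below WT 2 and 3 in all of these, while in pair 1 Ciita was higher in KO 1. In fits without KO 2 the adjusted p was 0.193 for Ciita, and without KO 3 it was 0.256 for Ciita. The range over the 12 alternatives was from 0.00178 to 0.798 for Ciita, and calls also ended with the replicate block, in the 4-library fit and in the 10-library fit.

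Pattern recognition receptors went both ways, with 3 higher and 7 lower of 28 and a median of -0.43. Tlr7, the endosomal receptor for single-stranded RNA, fell, with 98.6, 18.4 and 19.1 CPM in KO 1, 2 and 3, against 23.6, 58.8 and 51.1 CPM in WT 1, 2 and 3 (log2 fold change -1.55, SE 0.19, adjusted p = 0.000438). Ifih1, which encodes the RNA sensor MDA5 and is itself induced by interferon, had 76.9, 31 and 38.3 CPM in KO 1, 2 and 3, against 24.9, 71.8 and 65.9 CPM in WT 1, 2 and 3 (log2 fold change -0.995, SE 0.14, adjusted p = 0.00113). Both kept their call in all 12 alternatives, and KO 1 was the highest library in both. Tlr2, the receptor for bacterial lipoproteins, had 122, 56 and 59.4 CPM in KO 1, 2 and 3, against 134, 86.3 and 79.5 CPM in WT 1, 2 and 3 (log2 fold change -0.53, SE 0.12, adjusted p = 0.0182). Ddx58, which encodes RIG-I, had 68.8, 36.7 and 36.2 CPM in KO 1, 2 and 3, against 29.8, 56.1 and 53.6 CPM in WT 1, 2 and 3 (log2 fold change -0.59, SE 0.14, adjusted p = 0.0246). Without KO 2 the adjusted p was 0.229 for Tlr2 and 0.222 for Ddx58, and without KO 3 it was 0.138 for Tlr2 and 0.230 for Ddx58. Calls also ended with the replicate block, in the 4-library fit and in the 10-library fit for Tlr2 and Ddx58, and over the 12 alternatives the adjusted p ran from 0.00200 to 0.685 for Tlr2 and from 0.00307 to 0.658 for Ddx58. The other lower genes were Tlr1, Aim2 and Naip5, and the higher ones Tlr5, Tlr12 and Sting1. The 7 lower calls became 2 in the 4-library fit, 2 with the replicate block, 2 without KO 2, 2 without KO 3, 11 without WT 2, 12 without WT 3 and 2 in the 10-library fit, and the 3 higher calls became 0 in the 4-library fit, 1 with the replicate block, 0 without KO 2, 0 without KO 3, 5 without WT 2 and 0 in the 10-library fit.

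Among 25 cytokine and chemokine genes, 3 were higher and 6 lower. Ccl9, a CCR1 ligand gene, had 65.9, 199 and 185 CPM in KO 1, 2 and 3, against 205, 77.8 and 89.3 CPM in WT 1, 2 and 3 (log2 fold change 1.20, SE 0.12, adjusted p = 8.90e-05) and kept its call in all alternatives. Ccl3, another CCR1 ligand gene, had 103, 87.8 and 81.5 CPM in KO 1, 2 and 3, against 52.3, 151 and 133 CPM in WT 1, 2 and 3 (log2 fold change -0.75, SE 0.15, adjusted p = 0.00956). Il16, which encodes a CD4 ligand, had 114, 72.3 and 81.1 CPM in KO 1, 2 and 3, against 101, 132 and 108 CPM in WT 1, 2 and 3 (log2 fold change -0.65, SE 0.13, adjusted p = 0.0104). WT 1 was high in Ccl9, like KO 2 and 3, and low in Ccl3. The other genes called were Tnf and Ccl22, which were higher, and Il1b, Ccl4, Cxcl10 and Cxcl16, which were lower. Il12b, the gene of the IL-12 p40 subunit that drives Th1 responses, had 4.64, 6.47 and 7.97 CPM in KO 1, 2 and 3, against 2.59, 9.30 and 8.38 CPM in WT 1, 2 and 3 and was not called (log2 fold change -0.31, SE 0.18, adjusted p = 0.338). Il10, the gene of an inhibitory cytokine, stayed below 1 CPM, with 0.0549, 0.364 and 0.294 CPM in KO 1, 2 and 3, against 0, 0.744 and 0 CPM in WT 1, 2 and 3, and was not called (adjusted p = 0.893). Leaving out KO 2 gave an adjusted p of 0.0839 for Ccl3 and 0.166 for Il16, and without KO 3 it was 0.134 for Ccl3 and 0.0621 for Il16. Over the 12 alternatives the adjusted p ran from 5.31e-06 to 0.176 for Ccl3 and from 4.49e-05 to 0.502 for Il16, and calls also ended in the 10-library fit for Ccl3 and Il16 and in the 4-library fit for Il16. The 6 lower calls became 2 in the 4-library fit, 3 with the replicate block, 1 without KO 2, 1 without KO 3, 10 without WT 2 and 1 in the 10-library fit.

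Receptors for migration had 1 higher gene, Gpr183, and 4 lower ones among 20. Itga4, the alpha 4 integrin gene, had 769.9, 302 and 332 CPM in KO 1, 2 and 3, against 243, 567 and 568 CPM in WT 1, 2 and 3 (log2 fold change -0.84, SE 0.11, adjusted p = 0.000695). Ccr7, which guides dendritic cells to lymph nodes, had 1045, 600.2 and 573 CPM in KO 1, 2 and 3, against 862, 881 and 786 CPM in WT 1, 2 and 3 (log2 fold change -0.51, SE 0.11, adjusted p = 0.0138). S1pr4, a sphingosine phosphate receptor gene, had 2.61, 0.644 and 1.09 CPM in KO 1, 2 and 3, against 5.08, 2.84 and 2.91 CPM in WT 1, 2 and 3 (log2 fold change -1.75, SE 0.39, adjusted p = 0.0194). KO 1 was the highest library in Itga4 and Ccr7. In the 10-library fit the adjusted p was 0.674 for Itga4. The adjusted p without KO 2 was 0.131 for Ccr7 and 0.236 for S1pr4, and without KO 3 it was 0.185 for Ccr7 and 0.0606 for S1pr4. The call was also lost with the replicate block for Ccr7 and in the 4-library fit and in the 10-library fit for Ccr7 and S1pr4, and the adjusted p ran from 2.99e-05 to 0.830 for Ccr7 and from 0.00119 to 0.280 for S1pr4 over the 12 alternatives. The 4 lower calls became 1 in the 4-library fit, 1 without KO 2, 1 without KO 3 and 0 in the 10-library fit.

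Maturation genes showed no single direction, with 2 higher and 3 lower of 25, against 3.35% higher and 4.37% lower among all genes tested. Fscn1, the gene of the actin bundler fascin, had 223, 309 and 332 CPM in KO 1, 2 and 3, against 263, 202 and 172 CPM in WT 1, 2 and 3 (log2 fold change 0.77, SE 0.11, adjusted p = 0.00163). Marcksl1 had 339.6, 363 and 356 CPM in KO 1, 2 and 3, against 339, 261 and 246 CPM in WT 1, 2 and 3 (log2 fold change 0.50, SE 0.10, adjusted p = 0.00921). Cd40, the receptor gene for T cell help, had 75.7, 103 and 95.1 CPM in KO 1, 2 and 3, against 82.1, 128 and 151 CPM in WT 1, 2 and 3 (log2 fold change -0.49, SE 0.12, adjusted p = 0.0307). Ccr7 and Socs3 were the other lower genes. With the cDC1 libraries numbered 1 kept, the adjusted p was 0.361 for Fscn1. With KO 2 left out, the adjusted p was 0.117 for Marcksl1 and 0.163 for Cd40, without KO 3 it was 0.0916 for Marcksl1 and 0.279 for Cd40, and without WT 3 it was 0.0620 for Cd40. Among the 12 alternatives the adjusted p ran from 2.33e-06 to 0.547 for Marcksl1 and from 0.000530 to 0.592 for Cd40, with calls also lost in the 4-library fit and in the 10-library fit for Marcksl1 and Cd40 and with the replicate block for Cd40. The 2 higher calls became 4 with DESeq2, 1 in the 4-library fit, 1 without KO 2, 1 without KO 3, 6 without WT 2 and 0 in the 10-library fit, and the 3 lower calls became 5 with gene length offsets, 0 in the 4-library fit, 0 with the replicate block, 0 without KO 2, 0 without KO 3 and 0 in the 10-library fit.

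More genes of the cDC2 signature were higher than lower in KO 2 and 3, 7 against 2 of 24, with a median of 0.29. The higher genes were Clec4a4, Clec10a, Mgl2, Clec4a2, Clec4a3, Cd7 and Notch2. Mgl2, which encodes CD301b and was named after its values were seen, had 13, 20.6 and 22.1 CPM in KO 1, 2 and 3, against 43.8, 9.34 and 5.19 CPM in WT 1, 2 and 3 (log2 fold change 1.52, SE 0.27, adjusted p = 0.00555). Notch2, the receptor gene that one splenic cDC2 subset needs, had 207, 217 and 227 CPM in KO 1, 2 and 3, against 90.5, 152 and 170.0 CPM in WT 1, 2 and 3 (log2 fold change 0.46, SE 0.11, adjusted p = 0.0279). Notch2 differed in that KO 1 lay with KO 2 and 3 and WT 1 was the lowest library. The lower genes were Itgam, which encodes CD11b, and Cd4. Itgam had 218, 92.4 and 97.4 CPM in KO 1, 2 and 3, against 90.3, 157 and 147 CPM in WT 1, 2 and 3 (log2 fold change -0.68, SE 0.11, adjusted p = 0.00249). Cd4 had 178, 52.5 and 53.1 CPM in KO 1, 2 and 3, against 45.9, 151 and 94.9 CPM in WT 1, 2 and 3 (log2 fold change -1.22, SE 0.20, adjusted p = 0.00265). KO 1 was the highest library in both, and WT 1 was the lowest. In fits without KO 2 the adjusted p was 0.0607 for Mgl2, 0.153 for Notch2 and 0.0655 for Itgam, and without KO 3 it was 0.0785 for Mgl2 and 0.225 for Notch2. The range over the 12 alternatives was from 6.84e-08 to 0.0785 for Mgl2, from 0.000589 to 0.892 for Notch2, from 1.97e-06 to 0.415 for Itgam and from 9.35e-14 to 0.0899 for Cd4, and calls also ended in the 4-library fit for Mgl2, Notch2 and Cd4, with the replicate block for Notch2 and in the 10-library fit for Notch2, Itgam and Cd4. The 7 higher calls became 11 with limma-voom and 4 in the 10-library fit, and the median was between 0.23 and 0.34 in all 12 alternatives.

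Of 26 genes of the cDC1 signature, 4 were higher and 3 lower. Clec9a, which encodes a receptor for dead cells, had 8.64, 8.43 and 8.98 CPM in KO 1, 2 and 3, against 27.9, 3.44 and 1.09 CPM in WT 1, 2 and 3 (log2 fold change 1.76, SE 0.27, adjusted p = 0.00232). Cadm1 had 3.37, 8.43 and 7.55 CPM in KO 1, 2 and 3, against 5.75, 3.11 and 1.18 CPM in WT 1, 2 and 3 (log2 fold change 1.74, SE 0.25, adjusted p = 0.00148). Cd24a had 53.5, 63.6 and 70.7 CPM in KO 1, 2 and 3, against 97.7, 31.7 and 20.5 CPM in WT 1, 2 and 3 (log2 fold change 1.34, SE 0.17, adjusted p = 0.000535) and kept its call in all alternatives. Septin3 had 5.54, 15.7 and 19.9 CPM in KO 1, 2 and 3, against 12.5, 7.07 and 4.10 CPM in WT 1, 2 and 3 (log2 fold change 1.60, SE 0.23, adjusted p = 0.00132). WT 1 was the highest library in Clec9a and Cd24a. Naaa, Tlr11 and Cd36 were the lower genes, named after their values were seen. The summed level of the 26 genes was 1846, 1619 and 1629 CPM in KO 1, 2 and 3, against 1667, 1551 and 1638 CPM in WT 1, 2 and 3, so the groups overlapped. Calls ended in the 4-library fit for Clec9a, Cadm1 and Septin3 and in the 10-library fit for Clec9a, and over the 12 alternatives the adjusted p ran from 1.58e-16 to 0.152 for Clec9a, from 1.90e-15 to 0.136 for Cadm1 and from 5.50e-16 to 0.0648 for Septin3. The 4 higher calls became 1 in the 4-library fit and 7 without WT 2, and the 3 lower calls became 0 in the 4-library fit, 0 without KO 2, 6 without WT 2, 5 without WT 3, 6 with no filter and 0 in the 10-library fit.

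Of the regulators that direct dendritic cell lineages, 1 of the 9 examined was called. Nfil3, which acts early in cDC1 development, fell, with 54.1, 27.5 and 26.2 CPM in KO 1, 2 and 3, against 34.5, 51.3 and 45.4 CPM in WT 1, 2 and 3 (log2 fold change -0.85, SE 0.13, adjusted p = 0.00242). Irf4, on which cDC2 depend, had 281, 214 and 200.4 CPM in KO 1, 2 and 3, against 322, 249 and 268 CPM in WT 1, 2 and 3 and a log2 fold change of -0.32 (SE 0.13, adjusted p = 0.149). Irf8, the cDC1 regulator, had 46.4, 33.1 and 31.7 CPM in KO 1, 2 and 3, against 91.4, 28.2 and 18.4 CPM in WT 1, 2 and 3 and a change of 0.45 (SE 0.17, adjusted p = 0.129). The change was 0.27 (SE 0.10, adjusted p = 0.142) for Id2, -0.02 (SE 0.12, adjusted p = 0.934) for Batf3 and -0.21 (SE 0.11, adjusted p = 0.303) for Zbtb46, which marks conventional dendritic cells. It was -0.32 (SE 0.14, adjusted p = 0.194) for Zeb2, -0.12 (SE 0.14, adjusted p = 0.632) for Klf4 and -0.02 (SE 0.14, adjusted p = 0.948) for Bcl6. None of these 8 passed the test, and a p above the threshold does not show that the levels were alike. Over the whole list of 37 dendritic cell transcription factors, 0 were higher and 3 lower, which were Irf1, Nfil3 and Runx1. Runx1 had 54.1, 11.5 and 13.6 CPM in KO 1, 2 and 3, against 17.6, 31.4 and 32.2 CPM in WT 1, 2 and 3 (log2 fold change -1.34, SE 0.15, adjusted p = 0.000234), and Irf1 had 63.7, 57.3 and 57.8 CPM in KO 1, 2 and 3, against 63.4, 116 and 89.1 CPM in WT 1, 2 and 3 (log2 fold change -0.84, SE 0.14, adjusted p = 0.00288). Leaving out KO 3 gave an adjusted p of 0.0555 for Nfil3. Over the 12 alternatives the adjusted p ran from 3.46e-06 to 0.519 for Nfil3 and from 1.18e-07 to 0.104 for Irf1, and calls also ended in the 10-library fit for Nfil3 and Irf1 and in the 4-library fit for Irf1. The 10-library fit gave an adjusted p of 0.117 for Runx1.

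The Notch pathway and ESAM-high cDC2 genes, a list of the splenic subset that depends on NOTCH2, had 1 higher and 2 lower genes of 19. The calls were Notch2, Cd4 and Hes1. Hes1, a direct Notch target, had 42.6, 103 and 105 CPM in KO 1, 2 and 3, against 66.4, 167 and 129 CPM in WT 1, 2 and 3 (log2 fold change -0.51, SE 0.13, adjusted p = 0.0315). Esam, which marks that subset, had 65.3, 63.4 and 68 CPM in KO 1, 2 and 3, against 69.7, 55.3 and 49.3 CPM in WT 1, 2 and 3 and was not called (log2 fold change 0.33, SE 0.14, adjusted p = 0.204). The adjusted p without KO 2 was 0.259 for Hes1, without KO 3 it was 0.203 for Hes1, and without WT 2 it was 0.0648 for Hes1. The call was also lost with the replicate block, in the 4-library fit and in the 10-library fit, and the adjusted p ran from 0.000176 to 0.892 for Hes1 over the 12 alternatives. Genes tied to DC-SCRIPT in the literature had 0 calls of 15 in either direction with edgeR, where 1 higher and 2 lower genes had an unadjusted p below 0.05, and 1 higher and 1 lower with DESeq2. Dusp4, the phosphatase gene tied to DC-SCRIPT in human cells, had 3.40, 2.46 and 2.64 CPM in KO 1, 2 and 3, against 2.45, 3.86 and 4.10 CPM in WT 1, 2 and 3 (log2 fold change -0.64, SE 0.30, adjusted p = 0.234). Over all genes tested, 4.37% were lower and 3.35% higher. Of 25 chromosomal neighbours of Zfp366, 1 was lower, which is near that share. It was Naip5, an inflammasome sensor gene, with 25.3, 20.6 and 20.4 CPM in KO 1, 2 and 3, against 19.4, 27.8 and 43.4 CPM in WT 1, 2 and 3 (log2 fold change -0.79, SE 0.20, adjusted p = 0.0321). With KO 2 left out, the adjusted p was 0.214 for Naip5, without KO 3 it was 0.215 for Naip5, and without WT 3 it was 0.0596 for Naip5. Among the 12 alternatives the adjusted p ran from 9.80e-07 to 0.218 for Naip5, with calls also lost with the replicate block, with gene length offsets, in the 4-library fit and in the 10-library fit.

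Fc and paired receptors, which tune activation through activating and inhibitory partners, went both ways. Of 32, 8 were higher and 6 lower, with a median of 0.02. The higher genes were the lectins Clec4b1, Clec4a2, Clec4a3, Klrb1b, Klri1 and Klri2 with Fcgr2b and Fcer1g, and the lower ones were Fcgr4, Fcgrt, Sirpb1b, Cd300e, Cd300ld and Trem1. Fcer1g, the common signalling chain gene, had 374, 686 and 639 CPM in KO 1, 2 and 3, against 670.4, 456 and 430.4 CPM in WT 1, 2 and 3 (log2 fold change 0.58, SE 0.11, adjusted p = 0.00888) and was named after its values were seen, as was Trem1, which encodes an amplifier of inflammation, with 11.3, 2.02 and 2.48 CPM in KO 1, 2 and 3, against 1.12, 8.65 and 5.74 CPM in WT 1, 2 and 3 (log2 fold change -1.69, SE 0.41, adjusted p = 0.0276). The 6 lower calls became 0 in the 4-library fit, 3 with the replicate block, 0 without KO 2, 0 without KO 3, 12 without WT 2 and 0 in the 10-library fit, and the 8 higher calls became 5 in the 4-library fit. In fits without KO 2 the adjusted p was 0.123 for Fcer1g and 0.278 for Trem1, and without KO 3 it was 0.0582 for Fcer1g and 0.191 for Trem1. The range over the 12 alternatives was from 6.18e-06 to 0.379 for Fcer1g and from 6.46e-05 to 0.278 for Trem1, and calls also ended in the 4-library fit and in the 10-library fit for Fcer1g and Trem1 and with the replicate block for Trem1.

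Of 8 NADPH oxidase genes, which make reactive oxygen in phagosomes, 1 was higher and 2 lower. The lower genes encode cytosolic subunits. Ncf1 had 258, 161 and 153 CPM in KO 1, 2 and 3, against 124, 227 and 243 CPM in WT 1, 2 and 3 (log2 fold change -0.58, SE 0.11, adjusted p = 0.00622), and Ncf4 had 176, 118 and 117 CPM in KO 1, 2 and 3, against 136, 169 and 194 CPM in WT 1, 2 and 3 (log2 fold change -0.62, SE 0.11, adjusted p = 0.00622). Without KO 2 the adjusted p was 0.0741 for Ncf1 and 0.0892 for Ncf4, and without KO 3 it was 0.117 for Ncf1 and 0.0930 for Ncf4. Calls also ended in the 10-library fit for Ncf1 and Ncf4, and over the 12 alternatives the adjusted p ran from 1.30e-05 to 0.442 for Ncf1 and from 3.03e-05 to 0.247 for Ncf4.

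Several other programmes showed few or no calls, where 3.35% of all genes tested were higher and 4.37% lower. The list of cell cycle genes had 0 of 30 called and that of cholesterol synthesis genes 0 of 21, with medians of -0.05 and 0.04. Outside the list, the cell cycle genes Ccnd2, Cdc25b, Cdc25c, Foxm1 and Knl1 were called lower and Kif2c higher. They were named after their values were seen, and only Ccnd2 and Kif2c were called in all 13 fits. In edgeR's test an unadjusted p below 0.05 was found for 5 higher and 3 lower listed cell cycle genes and for 2 higher and 2 lower cholesterol genes. With DESeq2, 2 cell cycle genes were higher and 0 cholesterol genes were called, and without WT 2 the counts were 6 higher and 1 lower cell cycle genes, and 7 higher and 3 lower cholesterol genes. Glycolysis genes had 1 higher and 3 lower of 17, and apoptosis regulators 1 higher and 2 lower of 21. The list of lysosomal proteases had 1 higher gene of 13 and 0 lower. It was Cst7, which encodes an inhibitor of such proteases and not a protease, and it was not called in the 10-library fit. The 3 lower glycolysis calls became 1 in the 4-library fit, and the 1 higher call became 0 with gene length offsets, 0 in the 4-library fit, 0 with the replicate block, 0 without KO 2, 0 without KO 3, 3 without WT 2, 0 without WT 3 and 0 in the 10-library fit. The 2 lower apoptosis calls became 1 with gene length offsets, 0 in the 4-library fit, 0 without KO 2, 0 without KO 3 and 0 in the 10-library fit, and the 1 higher call became 0 in the 4-library fit, 0 with the replicate block, 0 without KO 2, 0 without KO 3, 3 without WT 2, 3 without WT 3 and 0 in the 10-library fit. Pfkp, the platelet-type phosphofructokinase gene, kept its call in all alternatives, with 30.2, 10.3 and 12.3 CPM in KO 1, 2 and 3, against 19.2, 24.3 and 28.2 CPM in WT 1, 2 and 3 (log2 fold change -1.21, SE 0.14, adjusted p = 0.000297). Of 22 immediate early genes, which respond to cell handling and activation, Egr3 was higher and Atf3 lower. Atf3 had 919.6, 759.8 and 699 CPM in KO 1, 2 and 3, against 562, 1224 and 1267 CPM in WT 1, 2 and 3 (log2 fold change -0.77, SE 0.12, adjusted p = 0.00179). Egr3 had 374, 115 and 108 CPM in KO 1, 2 and 3, against 172, 57.5 and 72.7 CPM in WT 1, 2 and 3 (log2 fold change 0.78, SE 0.17, adjusted p = 0.0148). KO 1 was the highest library in Egr3 and below WT 2 and 3 in Atf3. Leaving out KO 2 gave an adjusted p of 0.138 for Egr3, and without KO 3 it was 0.0529 for Atf3 and 0.0789 for Egr3. Over the 12 alternatives the adjusted p ran from 3.43e-10 to 0.288 for Atf3 and from 2.93e-06 to 0.910 for Egr3, and calls also ended in the 10-library fit for Atf3 and Egr3 and in the 4-library fit for Egr3.

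**Figure D5:**
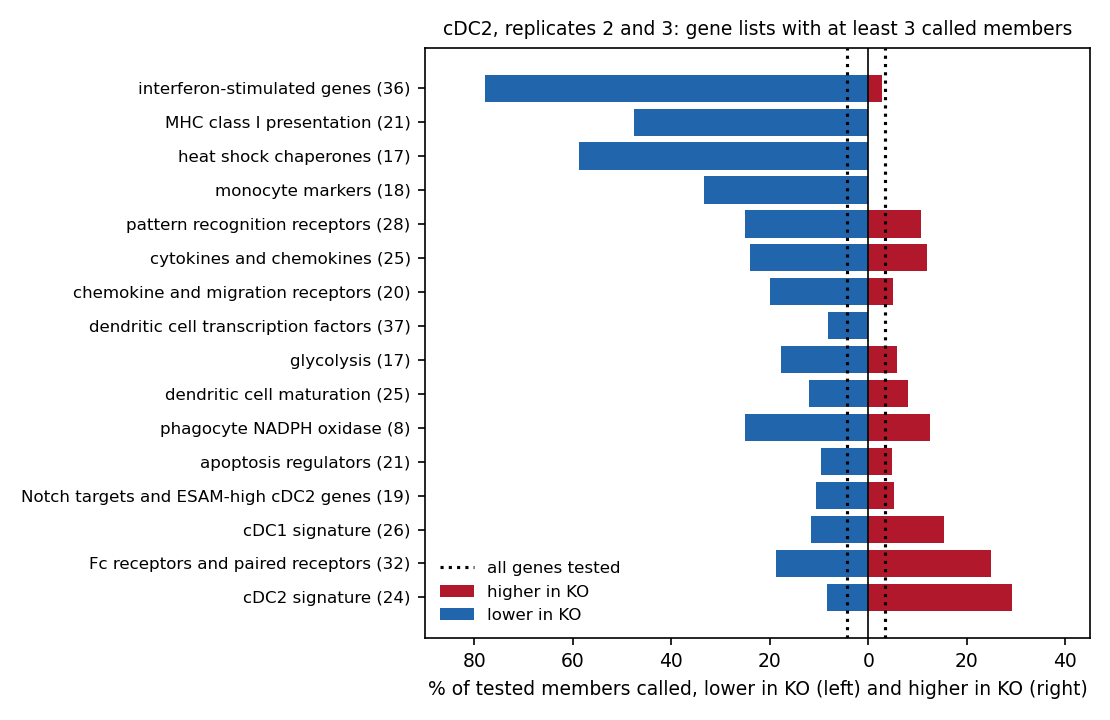
Share of the tested members of each gene list called in replicates 2 and 3, in percent, with members lower in KO to the left and higher in KO to the right; only lists with at least 3 calls are drawn, the number in brackets is the genes tested, and the dotted lines are the shares over all genes (4.37% lower and 3.35% higher). Interferon-stimulated genes (28 of 36), heat shock chaperones (10 of 17) and MHC class I genes (10 of 21) extend farthest to the left, and the cDC2 signature (7 of 24) and Fc and paired receptors (8 of 32) farthest to the right.

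Among markers of other cell types, some of those of monocytes and macrophages were lower in KO 2 and 3. Monocyte markers had 6 lower and 0 higher of 18, and their summed level was 6871, 5392 and 5209.9 CPM in KO 1, 2 and 3, against 5658, 7645 and 8359 CPM in WT 1, 2 and 3. Csf1r, the receptor gene for macrophage colony-stimulating factor, had 320.1, 138 and 143 CPM in KO 1, 2 and 3, against 132, 242 and 231 CPM in WT 1, 2 and 3 (log2 fold change -0.75, SE 0.10, adjusted p = 0.000994). Lyz2, the lysozyme M gene, had 845, 789 and 807 CPM in KO 1, 2 and 3, against 642, 1437 and 1627 CPM in WT 1, 2 and 3 (log2 fold change -0.94, SE 0.12, adjusted p = 0.000439), and reads may be shared with its copy Lyz1. Plac8 had 739, 983 and 831 CPM in KO 1, 2 and 3, against 964, 1724 and 2399 CPM in WT 1, 2 and 3 (log2 fold change -1.19, SE 0.17, adjusted p = 0.00132). The 6 lower calls became 0 in the 10-library fit. Macrophage markers had 2 lower of 17, with sums of 590.4, 464 and 453 CPM in KO 1, 2 and 3, against 337, 706 and 693 CPM in WT 1, 2 and 3, and their marker Vsig4 was at 0 in all 6 libraries. The 2 lower macrophage calls became 1 in the 4-library fit, 1 without KO 2, 1 without KO 3, 8 without WT 2, 1 without WT 3 and 0 in the 10-library fit. Adgre1, the F4/80 gene, had 384, 83.6 and 85.8 CPM in KO 1, 2 and 3, against 137, 273 and 195 CPM in WT 1, 2 and 3 (log2 fold change -1.47, SE 0.15, adjusted p = 0.000150). The part of such cells in the interferon, class I and cDC2 results was not tested. In the 10-library fit the adjusted p was 0.190 for Csf1r, 0.0618 for Lyz2, 0.405 for Plac8 and 0.0889 for Adgre1.

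T cell markers summed to 70.7, 137 and 135 CPM in KO 1, 2 and 3, against 78.9, 76.5 and 66.5 CPM in WT 1, 2 and 3, of which Tcf7, a gene that dendritic cells can also express, made up most. Tcf7 had 41.5, 114 and 113 CPM in KO 1, 2 and 3, against 57.8, 47.1 and 39.9 CPM in WT 1, 2 and 3 (log2 fold change 1.38, SE 0.15, adjusted p = 0.000166), and it was 1 of 9 T cell genes called, while Cd3e, Cd3g, Lat and Bcl11b were too low to test. Natural killer cell markers summed to 45.3, 46.5 and 45.9 CPM in KO 1, 2 and 3, against 53.4, 41.8 and 46.5 CPM in WT 1, 2 and 3, and Gzmb, Prf1, Klra8 and Eomes were too low to test. The groups overlapped in that sum, although Klri1, Klri2 and Klra3 differed strongly between the same libraries. B cell markers had 2 lower of 13, Ms4a1 and Blk, and plasmacytoid dendritic cell markers had 2 lower of 18, Irf7 and Tlr7. Erythroid and platelet markers summed to 26.9, 182 and 159.5 CPM in KO 1, 2 and 3, against 65.7, 157 and 227 CPM in WT 1, 2 and 3, with Car2 and Itga2b higher. The adjusted p without KO 2 was 0.0787 for Blk, and without KO 3 it was 0.0537 for Ms4a1, 0.121 for Blk and 0.0529 for Car2. The call was also lost in the 4-library fit and in the 10-library fit for Ms4a1, Blk, Car2 and Itga2b and with limma-voom for Itga2b, and the adjusted p ran from 1.93e-09 to 0.149 for Ms4a1, from 1.71e-06 to 0.121 for Blk, from 1.61e-11 to 0.170 for Car2 and from 1.31e-06 to 0.195 for Itga2b over the 12 alternatives. Neutrophil markers had 0 calls of 9 with edgeR's quasi-likelihood test and with DESeq2 and 0 with an unadjusted p below 0.05, and summed to 157, 164 and 162 CPM in KO 1, 2 and 3, against 69.1, 194 and 171 CPM in WT 1, 2 and 3, with Elane at 0 in all 6 libraries. With the cDC1 libraries numbered 1 kept, the adjusted p was 0.279 for Tcf7.

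Pair 1 on its own had 2121 of 13415 genes at least 2-fold apart (15.8%), 1405 higher in KO 1 (10.5%) and 716 lower (5.34%). With 1 library a group there is no test and no replicate check. A uniform pattern was seen in the cytosolic ribosomal protein genes, whose products form the ribosome. All 77 were lower in KO 1 than in WT 1, 44 of them at least 2-fold, with a median difference of -1.05. Rpsa had 1058, 2821 and 2526 CPM in KO 1, 2 and 3, against 2355, 1784 and 2090.0 CPM in WT 1, 2 and 3, and Rps2 had 549, 826 and 742 CPM in KO 1, 2 and 3, against 1179, 605 and 624 CPM in WT 1, 2 and 3. In replicates 2 and 3, 76 of the 77 were higher, by a median of 0.24, and 1 was called. The 1 call over the list became 2 with gene length offsets, 8 with DESeq2, 4 with limma-voom, 0 in the 4-library fit, 0 with the replicate block, 0 without KO 2, 0 without KO 3, 3 without WT 2, 26 without WT 3, 7 with no filter and 0 in the 10-library fit. Gene length moved with these differences. Spearman's rho between gene length and the level of a library relative to the mean was 0.38, -0.17 and -0.08 in KO 1, 2 and 3, against -0.26, 0.15 and -0.00471 in WT 1, 2 and 3. With the difference of KO over WT, rho was 0.48 in pair 1 and -0.15 in replicates 2 and 3. The part of length in these differences was not tested for pair 1, and offsets for length gave 1153 calls in replicates 2 and 3.

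Mitochondrially encoded mRNAs, 13 genes of the respiratory chain, had 2 higher genes in replicates 2 and 3 and a median of 0.41. All 13 changes were positive there. Pair 1 mostly had the same sign for this list, with a median of 1.19. In it 11 genes were higher in KO 1, 10 of them at least 2-fold, and 2 were lower, ND3 among them. ND3 had 442, 536 and 588 CPM in KO 1, 2 and 3, against 949, 368 and 358 CPM in WT 1, 2 and 3 (log2 fold change 0.63, SE 0.13, adjusted p = 0.0151), with WT 1 highest. ND4L had 179, 149 and 144 CPM in KO 1, 2 and 3, against 39.5, 94.3 and 101 CPM in WT 1, 2 and 3 (log2 fold change 0.58, SE 0.14, adjusted p = 0.0279), with WT 1 lowest. With KO 2 left out, the adjusted p was 0.0650 for ND3 and 0.203 for ND4L, and without KO 3 it was 0.151 for ND3 and 0.155 for ND4L. Among the 12 alternatives the adjusted p ran from 5.42e-05 to 0.726 for ND3 and from 0.000861 to 0.844 for ND4L, with calls also lost with gene length offsets and in the 10-library fit for ND3 and ND4L and with the replicate block and in the 4-library fit for ND4L. The 2 higher calls became 0 with gene length offsets, 7 with DESeq2, 7 with limma-voom, 1 in the 4-library fit, 1 with the replicate block, 0 without KO 2, 0 without KO 3, 5 without WT 2, 9 without WT 3, 7 with no filter and 0 in the 10-library fit.

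Calls were denser in some regions than over all genes, which is a description without a test. Of 714 tested genes on chromosome 6, 49 were called and at least 2-fold apart (6.86%, against 3.56% of all tested genes), and 14 of the 93 genes called in every fit lie there. In windows of 10 Mb with at least 20 tested genes, the highest share was 9 of 39 (23.1%) at 130 to 140 Mb of chromosome 6, which holds Klra3, Apold1 and Hebp1, followed by 8 of 47 (17.0%) at 30 to 40 Mb of chromosome 19, which holds the Ifit genes. The window at 120 to 130 Mb of chromosome 6 had 21 of 124 (16.9%), 14 higher and 7 lower, among them the Clec4, Klrb1, Klri and Cd4 genes. At 90 to 100 Mb of chromosome 16 it was 7 of 55 (12.7%), all lower, with Mx1, Mx2 and Runx1. Neighbouring genes of one family can share sequence and control regions, and the part of this in the dense windows was not tested. The densest window also held genes outside the lectin families, such as Bcl2l14, Apold1 and Hebp1.

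The same mouse pools allow the KO difference in cDC2 to be set beside that in cDC1. In replicates 2 and 3, 5157 of 13461 genes had a KO difference that differed between the subsets (38.3%), with 2430 higher in cDC2 (18.1%) and 2727 lower (20.3%). The count was 336 in the 10-library fit. Over 12 libraries it was 190 of 13415 (1.42%). These fits take the cDC1 and cDC2 libraries of a mouse pool as unpaired. With the pool as a block, a fit added after the data had been seen, the count was 4778 in replicates 2 and 3, of which 4695 were called in both, and 116 over 12 libraries. Of the 479 genes called and at least 2-fold apart in cDC2, 203 were also called with the same sign in cDC1, where 47.8% of genes were called, 103 with the opposite sign and 173 were not called there. The difference between subsets was called for 268 of the 479, for 103 in the 10-library fit and for 257 with the pool as a block. For Klri1 the change was 3.65 in cDC2 and -0.03 in cDC1, a difference of 3.68 (adjusted p = 1.59e-07), which over 12 libraries was 0.75 (adjusted p = 0.939). Klra3, by contrast, rose in both subsets, with 5.17 in cDC1 (adjusted p = 9.89e-06). In cDC1 its level was 6.25, 7.26 and 6.96 CPM in KO 1, 2 and 3, against 0, 0.255 and 0.116 CPM in WT 1, 2 and 3, so there the libraries numbered 1 lay with their own label.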

How the data were processed

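Libraries were grouped by their labels alone. The authors deposited raw read counts per gene, made with featureCounts on GRCm38 (mm10) per the submitters' processing notes, which give no versions; strand and multimapping settings are not given in the sources used here. The table holds 27179 genes, and RefSeq's GRCm38.p6 annotation gave names and positions to 25275. Genes without a name held 1.50% to 5.03% of the reads of a cDC2 library.

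Counts were fitted with edgeR 4.0.16 in R 4.3.3: filterByExpr, TMM scaling, 4 group means over both subsets, robust quasi-likelihood dispersions, and Benjamini-Hochberg adjustment over all genes tested, called below 0.05. Standard errors were derived from F. All 12 libraries entered one fit (13415 genes) and the 8 numbered 2 and 3 another (13461 genes). Both sets of pools were separate per the labels. Pair 1 was described as differences of log2(CPM + 0.5). In the simulated counts of 13415 genes, 100 genes were changed 2-fold and 100 others 4-fold. All had a mean of at least 5 CPM, and each gene had the same level in cDC1 and cDC2 before the change. The second fit recovered 80% of 2-fold and 100% of 4-fold changes, with 12 false calls, and the first made 6 false calls. The difference between subsets with the mouse pool as a block recovered 58% and 98% in replicates 2 and 3, with 20 false calls, and 0% and 1% over 12 libraries.

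The genes named were Zfp366, 10 regulators or cytokines, among called genes without overlap and with a mean of at least 5 CPM in the higher group the 10 that rose and the 10 that fell most, up to 4 members of each of 32 gene lists by smallest p, and the 8 smallest p of the difference between subsets. Predicted genes and receptor gene segments were left out. The members, lists and rule were chosen with earlier results of these data known. Genes listed as called beyond this rule were picked after their values were seen. A few genes that the rule takes are not reported here. Of 722 list entries, 719 matched a gene in the table.

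Alternatives were RLE scaling, DESeq2 1.42.0, limma-voom 3.58.1, no filter, a replicate block, gene length offsets, the cDC2 libraries alone, each library left out and, for the difference between subsets, the mouse pool as a block. Residual correlations of same-numbered KO and WT cDC2 libraries were -0.02, -0.09 and -0.02. As pair 1 ran opposite to replicates 2 and 3 in many genes, these correlations cannot show whether same-numbered libraries shared an effect. Precision follows from 2 or 3 libraries a group. Counting intervals and floors of 3 reads cover counting error alone, as no molecular identifiers tell copies of one molecule apart.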

Additional observations from a re-analysis of the deposited data

Results flagged for a closer look

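The change of KO against WT differed between cDC2 and cDC1 for 5157 genes in replicates 2 and 3, by edgeR's quasi-likelihood test of the difference. The count was 336 when the cDC1 libraries numbered 1 were kept and 4778 with the mouse pool as a block. The 8 with the smallest p follow, each given as the cDC2 change, the cDC1 change and the difference, on the log2 scale.

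Itgam, the CD11b gene, changed by -0.68 in cDC2 and 5.13 in cDC1, a difference of -5.81 (adjusted p = 1.54e-08), and over 12 libraries the adjusted p was 0.000842. Oasl2, the interferon-stimulated gene, changed by -1.25 in cDC2 and 4.63 in cDC1, a difference of -5.88 (adjusted p = 8.31e-08), with 0.00170 over 12 libraries. Ccl9 changed by 1.20 in cDC2 and 5.27 in cDC1, a difference of -4.07 (adjusted p = 2.29e-07), with 0.00154 over 12 libraries. Pla2g7, a phospholipase gene, changed by -1.14 in cDC2 and 3.98 in cDC1, a difference of -5.11 (adjusted p = 8.31e-08), with 0.00184 over 12 libraries.

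Dbn1, the gene of the actin binder drebrin, changed by 2.40 in cDC2 and -2.35 in cDC1, a difference of 4.75 (adjusted p = 8.31e-08), with 0.0282 over 12 libraries. Skint3 changed by 0.59 in cDC2 and 5.82 in cDC1, a difference of -5.24 (adjusted p = 8.31e-08), with 0.000185 over 12 libraries. Gria3, a glutamate receptor gene, changed by 1.14 in cDC2 and 8.61 in cDC1, a difference of -7.47 (adjusted p = 2.53e-07), with 0.00119 over 12 libraries. For Klri1 the values were 3.65 in cDC2 and -0.03 in cDC1, a difference of 3.68 (adjusted p = 1.59e-07). Klri1 was the exception over 12 libraries, with a difference of 0.75 and an adjusted p of 0.939, and its cDC2 level in pair 1 had the opposite sign.

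The calls and directions of these 8 differences in replicates 2 and 3 held in all 96 values from the alternatives run.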

How the results depend on the processing

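The count of genes called in cDC2 replicates 2 and 3 (1039) was 1825 with no filter on low counts, 293 with the cDC2 libraries alone, 122 with the cDC1 libraries numbered 1 kept, which was chosen after seeing the data, and 300 to 5245 with 1 library left out. With the replicate block it was 685. RLE scaling, DESeq2, limma-voom and length offsets gave 1030, 1439, 1287 and 1153. The 0 calls over 6 libraries stayed 0 in every alternative. For the difference between subsets over 12 libraries, the count of 190 was 480 with DESeq2, 93 with the replicate block, 302 with length offsets, 116 with the mouse pool as a block, which was added after seeing the data, and 118 to 224 with 1 library left out. In replicates 2 and 3 its count of 5157 was 336 with the cDC1 libraries numbered 1 kept. The cause of these shifts was not tested.

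The share of opposite signs in pair 1 was 84.6% with no filter, and the share of cDC1 genotype genes with the same sign in pair 3 was 68.0% at 8-fold. Among single genes over 6 libraries, none of which was called, the direction turned for Il12b with limma-voom (0.20) and the replicate block (0.0671), for Irf8 with the replicate block (0.00891) and for Batf3 with length offsets (0.0357). With 1 library left out, values over 6 libraries ran from -0.41 to 0.13 for Id2, -0.000593 to 0.40 for Bcl6, -0.17 to 0.0443 for Batf3, -0.48 to 0.24 for Il12b, -0.69 to 0.67 for Irf8, -0.0801 to 0.42 for Klf4 and -0.33 to 0.32 for Zeb2. In replicates 2 and 3 they ran from -0.13 to 0.11 for Bcl6 and -0.13 to 0.10 for Batf3. Zfp366 was never called, at 0.07 to 0.34 over 6 libraries and 0.13 to 0.43 in replicates 2 and 3. Of the values of named genes in replicates 2 and 3, 1071 kept their direction and side of the threshold, 204 lost and 5 gained a call, and 4 turned. Depth limits genes near 3 reads, most of all in WT 3.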

Other observations

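Some of the 93 genes called in all 13 fits of replicates 2 and 3 fell outside the rule for naming genes, and those described here were chosen after their values were seen. Several of them relate to the cell surface. Ifitm1, an interferon-induced membrane protein gene, rose, unlike most of its class, with 69.9, 374 and 326 CPM in KO 1, 2 and 3, against 249, 67.6 and 71.1 CPM in WT 1, 2 and 3 (log2 fold change 2.33, SE 0.12, adjusted p = 8.40e-07). Cd38, which encodes an enzyme that consumes NAD, had 8.12, 23.1 and 23.9 CPM in KO 1, 2 and 3, against 27, 10.04 and 9.47 CPM in WT 1, 2 and 3 (log2 fold change 1.26, SE 0.14, adjusted p = 0.000187). Cd101, an inhibitory receptor gene, had 39.4, 6.22 and 5.79 CPM in KO 1, 2 and 3, against 11.4, 25.2 and 25.5 CPM in WT 1, 2 and 3 (log2 fold change -2.08, SE 0.25, adjusted p = 0.000373). In each of these genes the groups of replicates 2 and 3 did not overlap, as for 50.5% of all tested genes. Pair 1 had the opposite sign in each, as for 95.7% of the 93 genes. Vsir, which encodes the T cell inhibitor VISTA, had 225, 84.4 and 89.1 CPM in KO 1, 2 and 3, against 124, 173 and 167 CPM in WT 1, 2 and 3 (log2 fold change -0.97, SE 0.10, adjusted p = 0.000166). Tnfsf14, the gene of the TNF family ligand LIGHT, had 12, 10.4 and 10.5 CPM in KO 1, 2 and 3, against 12.6, 51.8 and 47.5 CPM in WT 1, 2 and 3 (log2 fold change -2.25, SE 0.17, adjusted p = 1.50e-05), with KO 1 low as well.

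Nnt, the mitochondrial nicotinamide nucleotide transhydrogenase gene, differs between C57BL/6 substrains, as it carries a deletion in C57BL/6J mice. Its level was 62.3, 12.7 and 12 CPM in KO 1, 2 and 3, against 19.8, 46 and 37.8 CPM in WT 1, 2 and 3 (log2 fold change -1.77, SE 0.16, adjusted p = 6.18e-05), and the part of the strain background in these differences was not tested. KO 2, KO 3 and WT 1 were the 3 lowest libraries. Ccnd2, the cyclin D2 gene of chromosome 6, had 69.7, 10.7 and 12.6 CPM in KO 1, 2 and 3, against 11.4, 56.6 and 47.8 CPM in WT 1, 2 and 3 (log2 fold change -2.17, SE 0.18, adjusted p = 3.70e-05). Apol7c, an apolipoprotein L gene of dendritic cells, had 169.7, 491 and 502 CPM in KO 1, 2 and 3, against 739, 193 and 217 CPM in WT 1, 2 and 3 (log2 fold change 1.28, SE 0.11, adjusted p = 4.06e-05). Hpse, which encodes heparanase, had 50.1, 107 and 116 CPM in KO 1, 2 and 3, against 158, 41.5 and 36 CPM in WT 1, 2 and 3 (log2 fold change 1.52, SE 0.14, adjusted p = 6.00e-05). All of these kept their call in every fit, the 10-library fit included.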
